A study of Mus musculus with 2 samples.

Results

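Wnt and R-spondin signalling genes are described here in the mouse adrenal gland, as 47 genes chosen by name from 55536 annotated genes. They cover the ligands, the receptors, the β-catenin machinery, the TCF/LEF transcription factors, the inhibitors and the proteins that load and export Wnt. Members were found by matching gene symbols to the gene identifiers of the deposited tables, and all 47 had a row in both libraries. They belong to the 22015 nuclear protein-coding genes that serve as the background below.

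Total RNA was sequenced from adrenal glands of 14-day-old male B6CASTF1/J mice, the first-generation offspring of a C57BL/6J and CAST/EiJ cross. The labels name 2 libraries, biological replicates 1 and 2 of 1 group, each begun with 300 ng of RNA. Both carry 1 donor record and the wording 3x Males, which the labels do not explain, and their pool numbers are alike in one field and different in another. The number of animals behind a library is therefore not known, and the spread between libraries may not be a spread between animals. A single group offers no contrast to test, so no p-value is given.

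Wnt proteins are lipid-modified signals that bind a Frizzled receptor together with Lrp5 or Lrp6. This stops the destruction complex from degrading β-catenin, which then acts with TCF/LEF factors on target genes. R-spondins bind Lgr receptors and hold back the ligases Znrf3 and Rnf43, which otherwise remove Frizzled from the cell surface. In the mouse adrenal cortex the capsule is a source of R-spondin, β-catenin activity is highest in the outermost zone, and the pathway maintains that zone and the progenitors that renew the cortex.

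Replicate 1 held 32963248 expected counts and replicate 2 held 36260745. Levels are given in TPM, a unit of transcript number per length and depth, and a level quoted for 1 library comes from the RSEM values unless stated. TPM was spread over all RNA classes of these total RNA libraries, and nuclear protein-coding genes held 27.4% of it in replicate 1 and 27.8% in replicate 2. The 6 listed markers of the adrenal cortex, the 5 of the zona glomerulosa and the 5 of chromaffin cells all passed 1 TPM in both libraries. The 5 listed kidney markers summed to 0.51 TPM in replicate 1 and 0.48 in replicate 2, with Umod and Slc12a1 at 0. The libraries differed in markers of 2 other tissues. All 7 hepatocyte markers were present in both. They summed to 653 TPM in replicate 1 and 4561 in replicate 2, and to 259.6 and 4305 TPM without Glul, which was higher in replicate 1. The 8 lymphocyte markers summed to 38.3 TPM in replicate 1 and 5.87 in replicate 2. In bulk tissue, fewer cells of a type and less RNA per cell cannot be told apart, and this holds for each level below.

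Of the 47 genes, 38 were detected, meaning at least 1 TPM in both libraries, which is 80.9% of them, against 54.2% of nuclear protein-coding genes. The members were picked as known pathway genes, so this share describes the list. Fzd2, Rspo1, Sfrp5 and Rnf43 lay just inside the limit, with lower values of 1.09, 1.14, 1.15 and 1.52 TPM. Dkk2, Sfrp4, Fzd9 and Wnt6 lay just outside it, with lower values of 0.94, 0.75, 0.74 and 0.65 TPM. The remaining undetected genes were Wnt11, Fzd10, Dkk1, Wif1 and Rspo2. Most levels were modest. The median of all 47 was 3.91 TPM in replicate 1 and 3.69 in replicate 2. Detected members had medians of 5.59 and 4.78 TPM in replicates 1 and 2, and detected nuclear protein-coding genes 8.92 and 8.69 TPM. By mean level, 7 members lay under 1 TPM, 21 between 1 and 5, 14 between 5 and 20, 4 between 20 and 50, and 1, Ctnnb1, above 50. Together they summed to 508.1 TPM in replicate 1 and 508.6 in replicate 2, or 0.185% and 0.183% of nuclear protein-coding TPM.

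**Figure D1:**
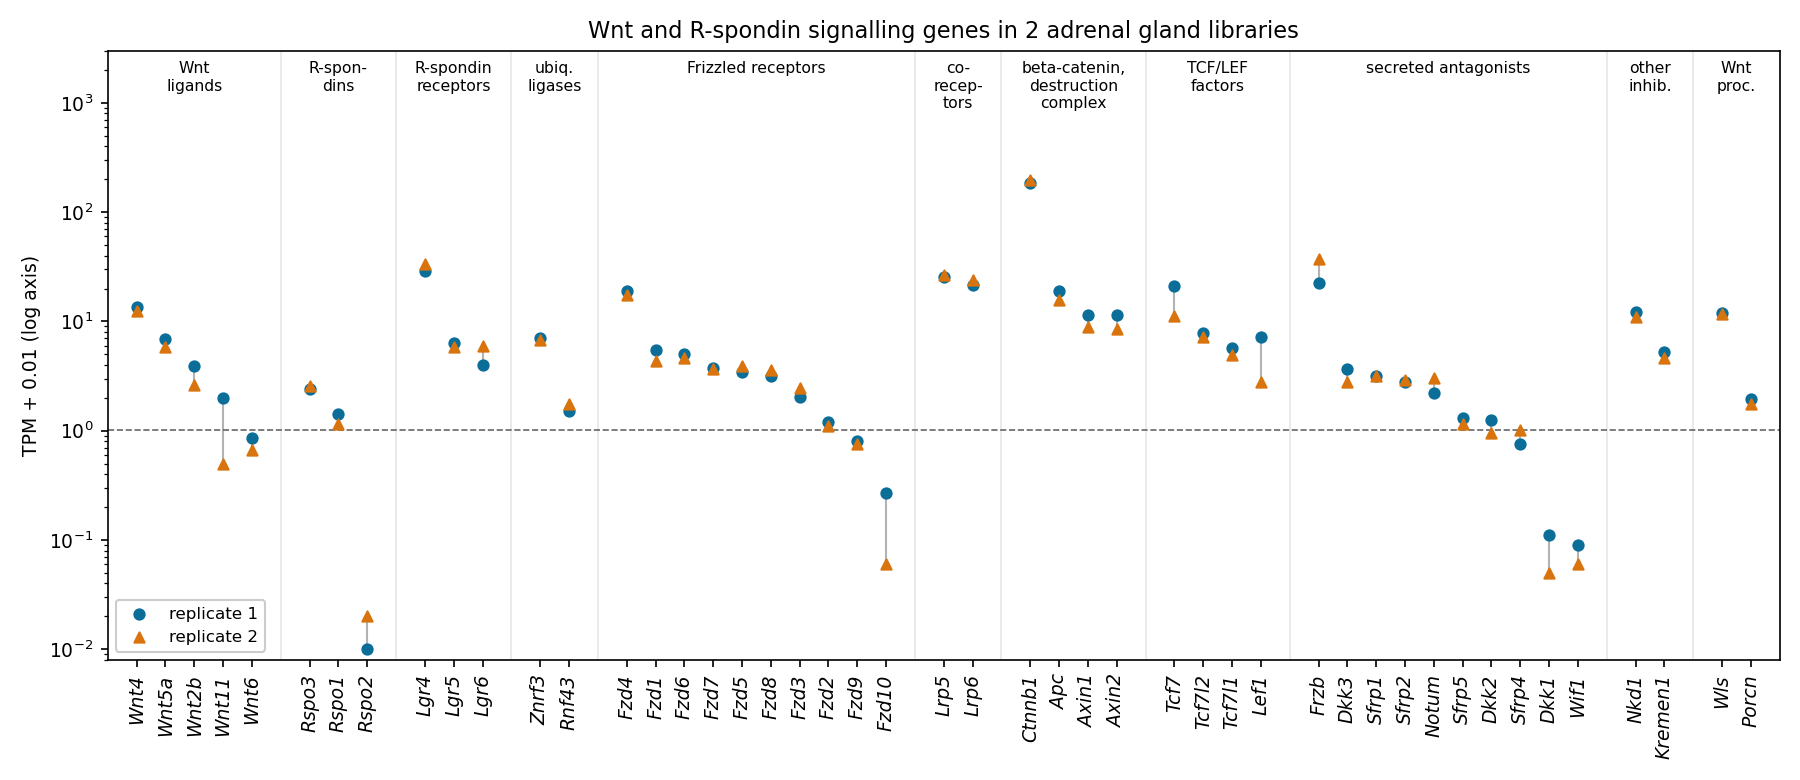
Levels of the 47 genes, grouped by role, as RSEM TPM plus 0.01 on a log axis; circles are replicate 1, triangles replicate 2, grey lines join the pair, and the dashed line marks 1 TPM. Ctnnb1 stands at 185 TPM in replicate 1 and 196 in replicate 2, and the widest gaps between the libraries above 1 TPM are those of Wnt11, Lef1, Tcf7 and Frzb.

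Wnt4 (ENSMUSG00000036856.4, chr4:137277489-137299726, plus strand, mm10) led the ligands. This ligand, needed in mice for normal differentiation of the zona glomerulosa, had 13.7 TPM in replicate 1 and 12.5 in replicate 2, from 1837 and 1820 counts. Wnt5a, best known for β-catenin-independent signalling, had 6.85 TPM in replicate 1 and 5.81 in replicate 2. Wnt2b, a β-catenin-activating ligand, had 3.91 TPM in replicate 1 and 2.60 in replicate 2. The order of these 3 was the same in both libraries, and their ranges did not overlap. Per library, Wnt4 exceeded Wnt5a by 1.05 ± 0.077 on the log2 scale and Wnt2b by 2.03 ± 0.32 (SD, n = 2). Wnt4 alone made up 46.6% of the summed TPM of all 19 Wnt genes in replicate 1 and 52.4% in replicate 2. The other 2 member ligands were not detected. Wnt6 had 0.85 TPM in replicate 1 and 0.65 in replicate 2. Wnt11, a ligand of β-catenin-independent signalling in the embryo, had 1.97 TPM in replicate 1 and 0.49 in replicate 2, and its range overlapped that of Wnt6. None of the 14 Wnt genes outside the member list was detected. They summed to 2.05 TPM in replicate 1 and 1.77 in replicate 2, Wnt5b was the highest at 0.80 and 0.71 TPM, and Wnt1, Wnt3a and Wnt8a had 0 counts in both libraries.

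Both R-spondins known from the mouse adrenal capsule were detected at low levels. Rspo3, which in mice is required for cortical zonation and renewal, had 2.39 TPM in replicate 1 and 2.57 in replicate 2. Rspo1 had 1.41 TPM in replicate 1 and 1.14 in replicate 2, from 65 and 67 counts. Rspo3 exceeded Rspo1 in either library, by 0.97 ± 0.29 on the log2 scale (SD, n = 2), or 1.95-fold, and by 1.5-fold in the second quantification, made with kallisto. Rspo2, an R-spondin of limb and lung development, had 0 counts in replicate 1 and 1 count in replicate 2. A count of 0 allows up to 0.029 TPM in replicate 1, taking 3 counts as the limit and covering counting error only.

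The R-spondin receptors were dominated by Lgr4 (ENSMUSG00000050199.13, chr2:109917647-110014257, plus strand). Lgr4 had 28.9 TPM in replicate 1 and 33.7 in replicate 2, which placed its mean above 86.3% of detected nuclear protein-coding genes. Lgr5, the stem cell marker of the intestine, had 6.31 TPM in replicate 1 and 5.77 in replicate 2. Lgr6 had 4.02 TPM in replicate 1 and 5.93 in replicate 2. Lgr4 exceeded Lgr5 by 2.37 ± 0.25 and Lgr6 by 2.68 ± 0.24 on the log2 scale (SD, n = 2). Lgr5 and Lgr6 changed places between the libraries, so their order is not settled by these data. Lgr4 and Lgr6 both stood higher in replicate 2. The ligases opposed by this system were led by Znrf3, whose loss in mice enlarges the adrenal cortex. Znrf3 had 6.98 TPM in replicate 1 and 6.75 in replicate 2. Rnf43 had 1.52 TPM in replicate 1 and 1.74 in replicate 2, and Znrf3 exceeded it 4.22-fold. Transcripts of Rnf43 typed as protein-coding held 41.4% of its TPM in replicate 1 and 33.5% in replicate 2, and by kallisto 35.9% and 56.3%.

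Frizzled receptors were present as a broad set with Fzd4 in the lead. Fzd4, which also serves as the norrin receptor of blood vessels, had 18.9 TPM in replicate 1 and 17.3 in replicate 2. It took 43.0% of summed Frizzled TPM in replicate 1 and 41.4% in replicate 2, and exceeded Fzd1, the next in order, by 1.90 ± 0.15 on the log2 scale (SD, n = 2). A middle group followed, of receptors that differed little from one another. Fzd1 had 5.47 TPM in replicate 1 and 4.32 in replicate 2, and Fzd6, which acts in planar cell polarity, overlapped it at 5.03 and 4.65 TPM. Fzd7, Fzd5 and Fzd8 had 3.71, 3.42 and 3.15 TPM in replicate 1 and 3.69, 3.89 and 3.59 TPM in replicate 2. Their ranges overlapped from each to the next, so the order among these 3 does not go beyond the spread. Fzd3, another polarity receptor, had 2.03 TPM in replicate 1 and 2.43 in replicate 2. Fzd2 was the lowest detected Frizzled, at 1.18 TPM in replicate 1 and 1.09 in replicate 2. Fzd9 had 58 counts in each library, at 0.80 and 0.74 TPM, and Fzd10 had 27 counts in replicate 1 and 6 in replicate 2.

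The 2 coreceptors stood at nearly equal levels. Lrp5 had 25.7 TPM in replicate 1 and 26.4 in replicate 2, and Lrp6 had 21.7 TPM in replicate 1 and 24.1 in replicate 2. Lrp5 was the higher in both libraries, by 0.19 ± 0.078 on the log2 scale (SD, n = 2). In the kallisto values this difference shrank to a mean of 0.016, with Lrp6 the higher in replicate 2. Each coreceptor exceeded each single Frizzled in both libraries.

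β-catenin was the most abundant member. Ctnnb1 (ENSMUSG00000006932.17, chr9:120929216-120960507, plus strand), which encodes it, had 185 TPM in replicate 1 and 196 in replicate 2, above 98.3% of detected nuclear protein-coding genes by mean. Apc, a scaffold of the destruction complex, had 18.8 TPM in replicate 1 and 15.9 in replicate 2. Ctnnb1 exceeded Apc by 3.47 ± 0.23 on the log2 scale (SD, n = 2). Apc was the 1 member with fractional expected counts, which RSEM gives where reads fit more than 1 gene. Axin1, the constitutive scaffold of the complex, had 11.5 TPM in replicate 1 and 8.85 in replicate 2. Axin2, a feedback inhibitor and widely used readout of β-catenin signalling, had 11.5 TPM in replicate 1 and 8.55 in replicate 2. The ranges of the 2 axins overlapped, and their order turned round with the quantification, with a mean log2 ratio of Axin1 over Axin2 of 0.026 by RSEM and -0.24 by kallisto.

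TCF/LEF factors had the widest gap between the libraries of the roles described, by summed TPM. Tcf7, which encodes TCF-1, had 20.9 TPM in replicate 1 and 11.2 in replicate 2, from 1509 and 872 counts. Lef1 had 7.19 TPM in replicate 1 and 2.81 in replicate 2, from 562 and 312 counts. Both genes are known in the adrenal cortex as partners of β-catenin and are also strongly expressed by T lymphocytes in mice. Tcf7l2, the main factor of the intestine, had 7.90 TPM in replicate 1 and 7.17 in replicate 2. Tcf7l1, mostly a repressor, had 5.71 TPM in replicate 1 and 4.91 in replicate 2. Tcf7 was the highest factor in both libraries. Tcf7l2 was ahead of Tcf7l1 by 0.51 ± 0.055 on the log2 scale (SD, n = 2), and the range of Lef1 spanned that of Tcf7l1. The 4 factors summed to 41.7 TPM in replicate 1 and 26.1 in replicate 2.

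Among secreted antagonists Frzb stood far above the others. Frzb (ENSMUSG00000027004.3, chr2:80411970-80447625, minus strand), a decoy for Wnt with a Frizzled-like domain, had 22.5 TPM in replicate 1 and 37.0 in replicate 2. It took 59.6% of the group's summed TPM in replicate 1 and 71.1% in replicate 2, and exceeded its relative Sfrp1 by 3.19 ± 0.50 on the log2 scale (SD, n = 2), or 9.15-fold. The decoys Sfrp1 and Sfrp2 were steady. Sfrp1 had 3.14 TPM in replicate 1 and 3.17 in replicate 2, and Sfrp2 had 2.81 TPM in replicate 1 and 2.90 in replicate 2. Sfrp5 had 1.30 TPM in replicate 1 and 1.15 in replicate 2. Sfrp4 missed the detection limit through replicate 1 alone, with 0.75 TPM there and 1.01 TPM in replicate 2. The Dickkopf proteins Dkk1 and Dkk2 block Lrp5 and Lrp6, whereas Dkk3 is a divergent relative. Dkk3 had 3.64 TPM in replicate 1 and 2.79 in replicate 2. Dkk2 had 1.24 TPM in replicate 1 and 0.94 in replicate 2. Dkk1 had 8 counts in replicate 1 and 3 in replicate 2, and Wif1, another Wnt-binding inhibitor, had 6 and 4. Dkk1 and Wif1 were therefore close to the counting limit. Notum, an enzyme that strips the lipid from Wnt, had 2.21 TPM in replicate 1 and 3.02 in replicate 2, from 89 and 146 counts.

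Other inhibitors and the processing genes varied little. Nkd1, a feedback inhibitor that binds Dishevelled, had 12.3 TPM in replicate 1 and 10.99 in replicate 2. Kremen1, the Dickkopf receptor, had 5.27 TPM in replicate 1 and 4.64 in replicate 2. Wls, the carrier that takes Wnt to the cell surface, had 11.9 TPM in replicate 1 and 11.7 in replicate 2. Porcn, the enzyme that attaches the lipid, had 1.94 TPM in replicate 1 and 1.74 in replicate 2, from 100 and 95 counts. Wls exceeded Porcn 6.43-fold, with a log2 ratio of 2.68 ± 0.092 (SD, n = 2).

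Between the libraries most members moved little. Of the 38 detected members, 27 lay within 1.2-fold, a count for which no background share is given. Their median absolute log2 ratio was 0.18, slightly above the 0.15 of detected nuclear protein-coding genes. Replicate 1 was the higher for 24 and replicate 2 for 14. That is 63.2% higher in replicate 1, against 62.9% of detected nuclear protein-coding genes. The median log2 ratio of replicate 1 over replicate 2 was 0.12 for members and 0.066 for those genes. The split depended on scaling. With TMM factors on counts it was 20 and 18, with 52.6% of members and 47.5% of genes higher in replicate 1. The medians were then 0.021 for members and -0.012 for genes. By the spike-ins it was 27 and 11, or 71.1% of members and 75.7% of genes, with medians of 0.20 and 0.14. Across the 47 members, log2(TPM + 1) of the 2 libraries had a Pearson correlation of 0.980, as a description over genes that share the same libraries.

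A ratio over 2-fold was seen for 2 of the 40 members with a mean of at least 1 TPM, Wnt11 and Lef1, both higher in replicate 1. That is 5%, against 5.89% of nuclear protein-coding genes by the same rule, 2.52% with replicate 1 higher and 3.37% with replicate 2 higher. By kallisto it was 3 of 43 members, namely Wnt11 and Lef1 again and Notum, which was higher in replicate 2. The share over nuclear protein-coding genes was 7.25%, made up of 3.51% with replicate 1 higher and 3.73% with replicate 2 higher. These shares put the count of members near the background.

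A finer measure was whether the credibility intervals of TPM deposited for each library were apart. These intervals cover counting and read assignment within a library and say nothing of the spread between animals. They were apart for 10 of 40 members, or 25%, against 20.5% of nuclear protein-coding genes. Replicate 1 was the higher for Wnt2b, Wnt11, Fzd1, Fzd4, Lef1, Tcf7 and Dkk3, with a background of 11.6% in that direction. Replicate 2 was the higher for Lgr4, Lgr6 and Frzb, with a background of 8.9%. Of the 10, 8 lay within 2-fold. Tcf7 was 1.86-fold higher in replicate 1 and Wnt2b 1.5-fold, while Frzb was 1.64-fold, Lgr6 1.48-fold and Lgr4 1.16-fold higher in replicate 2. None of these 10 directions turned round with TMM factors, with the spike-ins or with kallisto.

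**Figure D2:**
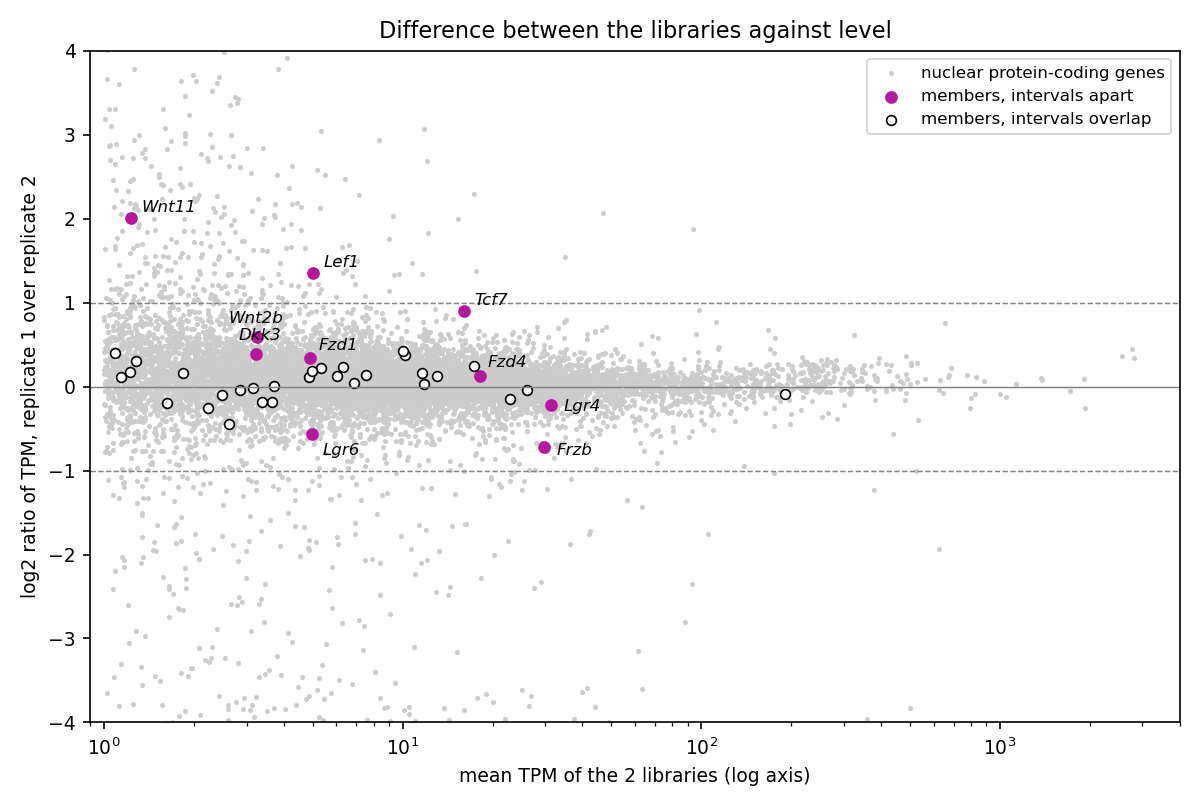
Log2 ratio of TPM, replicate 1 over replicate 2, against the mean TPM of both libraries on a log axis, for nuclear protein-coding genes (grey) and 40 members, all averaging 1 TPM or more; filled points are the 10 members whose deposited credibility intervals were apart, open points the others. Wnt11 and Lef1 lie above the dashed line at 2-fold, Tcf7 lies just below it, and genes past 4 log2 units are outside the frame.

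By RSEM the gap in Lef1 lay mainly in transcripts that start inside the gene, and by kallisto it was shared with those of the first start. Lef1 (ENSMUSG00000027985.14) occupies chr3:131110471-131224356 on the plus strand of mm10 and has 8 annotated transcripts. The 3 that start within 1000 bases of the first start held 3.35 TPM in replicate 1 and 2.19 in replicate 2, a 1.53-fold ratio. The 5 that start 1000 bases or more downstream held 3.85 TPM in replicate 1 and 0.61 in replicate 2, a 6.31-fold ratio. By kallisto the first class held 6.44 TPM in replicate 1 and 3.64 in replicate 2, a 1.77-fold ratio, and the downstream class 4.55 and 1.01 TPM, a 4.51-fold ratio. The downstream class held 53.5% of Lef1 TPM in replicate 1 and 21.8% in replicate 2, and 41.4% and 21.7% by kallisto. This split by start site was chosen after the values were seen.

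The downstream class was of mixed make-up. Lef1-203, its protein-coding member, starts 2326 bases downstream and encodes 331 residues in place of the 397 of Lef1-201. Its start codon lies downstream, so its protein lacks the amino end of the long form, where the β-catenin-binding domain lies. It had 1.27 TPM in replicate 1 and 0.40 in replicate 2 by RSEM, but 0.60 and 0 TPM by kallisto. Lef1-208, a short retained-intron transcript, had 1.25 TPM in replicate 1 and 0 in replicate 2 by RSEM, and 0 in both by kallisto. The class total differed less between the quantifications, at 4.55 TPM in replicate 1 and 1.01 in replicate 2 by kallisto. TPM divides by a length that depends on the mix of transcripts. From counts with TMM factors, without that step, the log2 ratio of Lef1 was 0.89, against 1.36 from TPM, and thus under 2-fold.

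Tcf7 gave another picture. The gene (ENSMUSG00000000782.15) occupies chr11:52252371-52283014 on the minus strand and has 2 annotated transcripts, Tcf7-201 with 74.8% ± 1.43 of its TPM and Tcf7-202 with 25.2% ± 1.43 (SD, n = 2). Both were higher in replicate 1, Tcf7-201 at 15.9 TPM against 8.29 TPM in replicate 2 and Tcf7-202 at 5.05 TPM against 2.94 TPM. Tcf7-202 starts 443 bases upstream, but both are annotated with 1 start codon and 303 residues. Long and short forms of TCF-1, with and without the β-catenin-binding domain, are known, and these 2 transcript models cannot separate them. Both models begin downstream of an atg in the first Tcf7 window below, so neither includes an amino end that starts there. No protein sequence was compared.

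The start regions of both genes are shown because both genes were higher in replicate 1 and have more than 1 start site. Each window runs from 250 bases before to 50 bases after a start in RefSeq, on build GRCm38.p6 (mm10), 5′ to 3′ on the strand of the gene. The first Lef1 window belongs to the upstream start in RefSeq, which lies before the first start in GENCODE, and the second to the internal start, where ATG in capitals is the start codon annotated for Lef1-203. The first Tcf7 window spans the start of Tcf7-202, whose first 50 bases matched it at 50 of 50 positions. The second belongs to the downstream start. Before the start of Tcf7-202, the first Tcf7 window holds an atg whose reading frame runs to the window's end without a stop codon. Much of this window may therefore be coding sequence, and its G and C content and motif search are not those of a promoter alone.
Lef1 chr3:131110073-131110372 (+): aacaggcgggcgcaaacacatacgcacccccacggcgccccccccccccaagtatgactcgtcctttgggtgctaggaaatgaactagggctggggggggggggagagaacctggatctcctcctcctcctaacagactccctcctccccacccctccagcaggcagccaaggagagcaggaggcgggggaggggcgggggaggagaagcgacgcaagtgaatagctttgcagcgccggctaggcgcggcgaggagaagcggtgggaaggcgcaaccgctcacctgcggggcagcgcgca
Lef1 chr3:131112541-131112840 (+): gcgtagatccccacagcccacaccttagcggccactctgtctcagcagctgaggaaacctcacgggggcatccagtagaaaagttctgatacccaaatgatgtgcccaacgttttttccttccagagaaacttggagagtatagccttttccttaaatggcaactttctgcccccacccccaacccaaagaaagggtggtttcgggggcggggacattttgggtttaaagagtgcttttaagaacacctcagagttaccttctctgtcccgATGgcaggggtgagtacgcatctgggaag
Tcf7 chr11:52282965-52283264 (-): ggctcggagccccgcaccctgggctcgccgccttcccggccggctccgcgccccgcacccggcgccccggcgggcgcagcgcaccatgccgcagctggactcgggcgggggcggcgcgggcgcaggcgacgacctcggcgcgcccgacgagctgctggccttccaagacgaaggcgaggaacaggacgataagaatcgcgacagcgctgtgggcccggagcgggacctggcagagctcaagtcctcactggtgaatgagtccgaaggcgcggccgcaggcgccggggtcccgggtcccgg
Tcf7 chr11:52282546-52282845 (-): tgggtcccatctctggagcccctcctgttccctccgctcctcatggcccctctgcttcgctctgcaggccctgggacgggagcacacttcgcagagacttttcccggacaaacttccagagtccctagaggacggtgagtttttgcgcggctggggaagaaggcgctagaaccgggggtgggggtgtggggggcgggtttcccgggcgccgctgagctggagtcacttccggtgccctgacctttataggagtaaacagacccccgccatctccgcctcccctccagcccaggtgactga
The Lef1 windows held 67.3% G and C at the upstream start and 51.7% at the internal start, and the Tcf7 windows 76.3% and 64.3%. The median was 67% over member windows and 52.7% over all windows. None of these 4 windows held a TCF/LEF motif, searched on both strands as CTTTG followed by 2 letters that are each A or T.

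In all, 28 of the 47 members had 36 windows in the RefSeq promoter table, and 5 windows, or 13.9%, held a match. The share was 16.9% over all 32851 windows. The 5 belonged to Dkk1, Fzd7, Lef1, Tcf7l2 and Wnt11, that of Lef1 being a further window inside the gene. Both Wnt11 windows are shown because Wnt11 had the widest gap between the libraries among members with a mean of at least 1 TPM. The first holds a match, in capitals, which is CTTTGAT read on the other strand, at position -51 from the RefSeq start. The second, around the start of Wnt11-205, holds none.
Wnt11 chr7:98834862-98835161 (+): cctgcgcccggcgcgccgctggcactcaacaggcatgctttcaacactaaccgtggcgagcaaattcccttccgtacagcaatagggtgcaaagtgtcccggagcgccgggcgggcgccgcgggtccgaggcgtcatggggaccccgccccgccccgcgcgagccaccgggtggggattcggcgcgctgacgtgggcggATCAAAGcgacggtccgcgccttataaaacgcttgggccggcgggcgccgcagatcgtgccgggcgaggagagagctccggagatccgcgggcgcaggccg
Wnt11 chr7:98838595-98838894 (+): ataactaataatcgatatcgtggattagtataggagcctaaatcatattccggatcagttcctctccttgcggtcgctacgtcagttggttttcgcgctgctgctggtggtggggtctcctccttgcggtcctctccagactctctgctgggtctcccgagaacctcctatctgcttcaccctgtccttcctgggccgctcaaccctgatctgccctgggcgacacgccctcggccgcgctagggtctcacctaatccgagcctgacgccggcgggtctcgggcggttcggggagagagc
A match describes the letters only. Wnt11 rested on 95 counts in replicate 1 and 33 in replicate 2, and its log2 ratio was 2.01 from RSEM TPM, 1.39 from kallisto TPM and 1.57 from counts with TMM factors. Transcripts typed as protein-coding held 37.1% of its TPM in replicate 1 and 20.8% in replicate 2, and by kallisto 36.7% and 9.81%. Wnt11-205 had 0.38 TPM in replicate 1 and 0.05 in replicate 2, and by kallisto 0.95 and 0.06.

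The TCF/LEF difference went together with markers of another cell type. All 8 lymphocyte markers, the T cell genes Cd3e, Cd3d, Cd3g, Cd4 and Cd8a and the B cell genes Cd79a, Cd79b and Ms4a1, were over 2-fold higher in replicate 1, and none was at 0 in either library. Their sum was 38.3 TPM in replicate 1 and 5.87 in replicate 2, a 6.52-fold ratio, against 1.86-fold for Tcf7 and 2.56-fold for Lef1. Cd3e, a T cell receptor subunit, had 5.09 TPM in replicate 1 and 0.49 in replicate 2. The part of lymphocytes in the Tcf7 and Lef1 values was not tested.

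Other markers shared a direction with some other members. Of the 8 capsule and stroma markers, all detected in both libraries, 6 were higher in replicate 1, as Wnt2b, Fzd1 and Dkk3 were. Lum and Tcf21 were higher in replicate 2. Of detected nuclear protein-coding genes, 62.9% were higher in replicate 1. The 8 markers summed to 440 TPM in replicate 1 and 361 in replicate 2. Without the collagens Col1a1 and Col3a1 the sums were 112 TPM in replicate 1 and 101 in replicate 2. Of 7 hepatocyte markers, none at 0, 6 were over 2-fold higher in replicate 2, where Frzb, Lgr4 and Lgr6 were also higher. Glul, the glutamine synthetase gene, went the other way, with 394 TPM in replicate 1 and 256 in replicate 2. Frzb, Lgr4 and Lgr6 also shared their direction with 5 of 6 adrenal cortex markers, the other being higher in replicate 1. None of these 6 was over 2-fold apart, and they summed to 5919 TPM in replicate 1 and 6436 in replicate 2. Of 5 Schwann and sustentacular markers 3 were detected and none was at 0. 3 of the 5 were higher in replicate 1 and 2 in replicate 2, and they summed to 18.0 TPM in replicate 1 and 27.2 in replicate 2. Most of these sums was S100b, with 12.9 TPM in replicate 1 and 22.3 in replicate 2. Among those with a mean of at least 1 TPM, Erbb3 alone was over 2-fold apart, with 1.18 TPM in replicate 1 and 2.46 in replicate 2. Of 6 adipocyte markers, each detected, Lep alone was over 2-fold higher in replicate 2, and their sums were 2805 TPM in replicate 1 and 2850 in replicate 2. The 5 endothelial markers, all detected and all higher in replicate 1, summed to 208 TPM in replicate 1 and 183 in replicate 2. The part of these cell types in the member values was not tested.

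**Figure D3:**
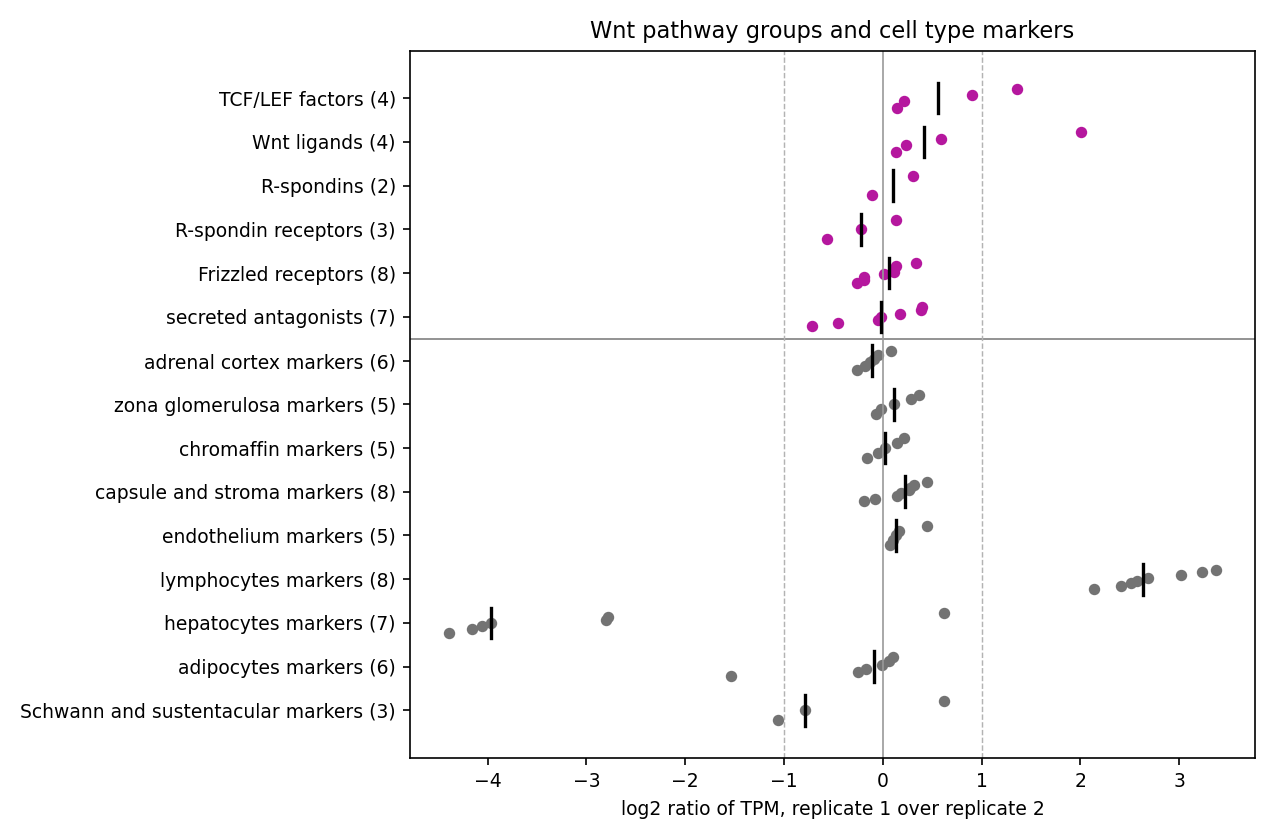
Log2 ratio of TPM, replicate 1 over replicate 2, for members in 6 roles (coloured) and for cell type markers (grey), limited to genes averaging 1 TPM or more, whose number is in parentheses; black bars are medians and dashed lines mark 2-fold. The 8 lymphocyte markers all lie to the right of the 2-fold line and 6 of 7 hepatocyte markers to the left of the other, while the 6 adrenal cortex markers lie between the lines.

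Transcript use was steady for most members. Of the 38 detected members, 9 have 1 annotated transcript and 29 have more, up to 22 for Tcf7l2. The leading transcript was the same in both libraries for 26 of 29, against 88.9% of detected nuclear protein-coding genes with more than 1 transcript. The 3 exceptions were Rnf43, Apc and Notum. It was the same in both libraries and both quantifications for 21 of 29, against 66.3%, and was typed as protein-coding in both libraries for 26 of 29, against 90.6%. These shares lie near the background.

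Ctnnb1, Frzb and Wls were among the members with a large share of RNA not typed as coding, as were Apc, Porcn and Notum. Its size depended on the quantification. Coding transcripts of Apc held 48.3% of its TPM in replicate 1 and 55.1% in replicate 2, and by kallisto 64.9% and 68.8%. Ctnnb1-201, the full-length message, held 44.1% ± 2.41 of Ctnnb1 TPM and Ctnnb1-215, a retained-intron transcript, 27.8% ± 0.20 (SD, n = 2). By kallisto Ctnnb1-215 held 12.9% ± 1.68. For Frzb, the message Frzb-201 held 70.8% ± 1.99 and the processed transcript Frzb-202 29.2% ± 1.99, which was 44.6% ± 3.48 by kallisto. Both Frzb transcripts were higher in replicate 2, Frzb-201 with 16.3 TPM in replicate 1 and 25.7 in replicate 2, and Frzb-202 with 6.25 and 11.3 TPM. Wls divided its TPM between 2 coding transcripts, Wls-201 and Wls-205, and Wls-206, which is typed for nonsense-mediated decay and held 28.1% ± 0.75, and 31.0% ± 1.66 by kallisto. Lgr4 and Axin2 were mostly coding RNA. Lgr4-201 held 87.4% ± 0.60 of Lgr4 TPM, and 72.9% ± 0.82 by kallisto. Coding transcripts of Axin2 held 92.5% of its TPM in replicate 1 and 92.9% in replicate 2, Axin2-201 alone 68.5% ± 4.18.

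**Figure D4:**
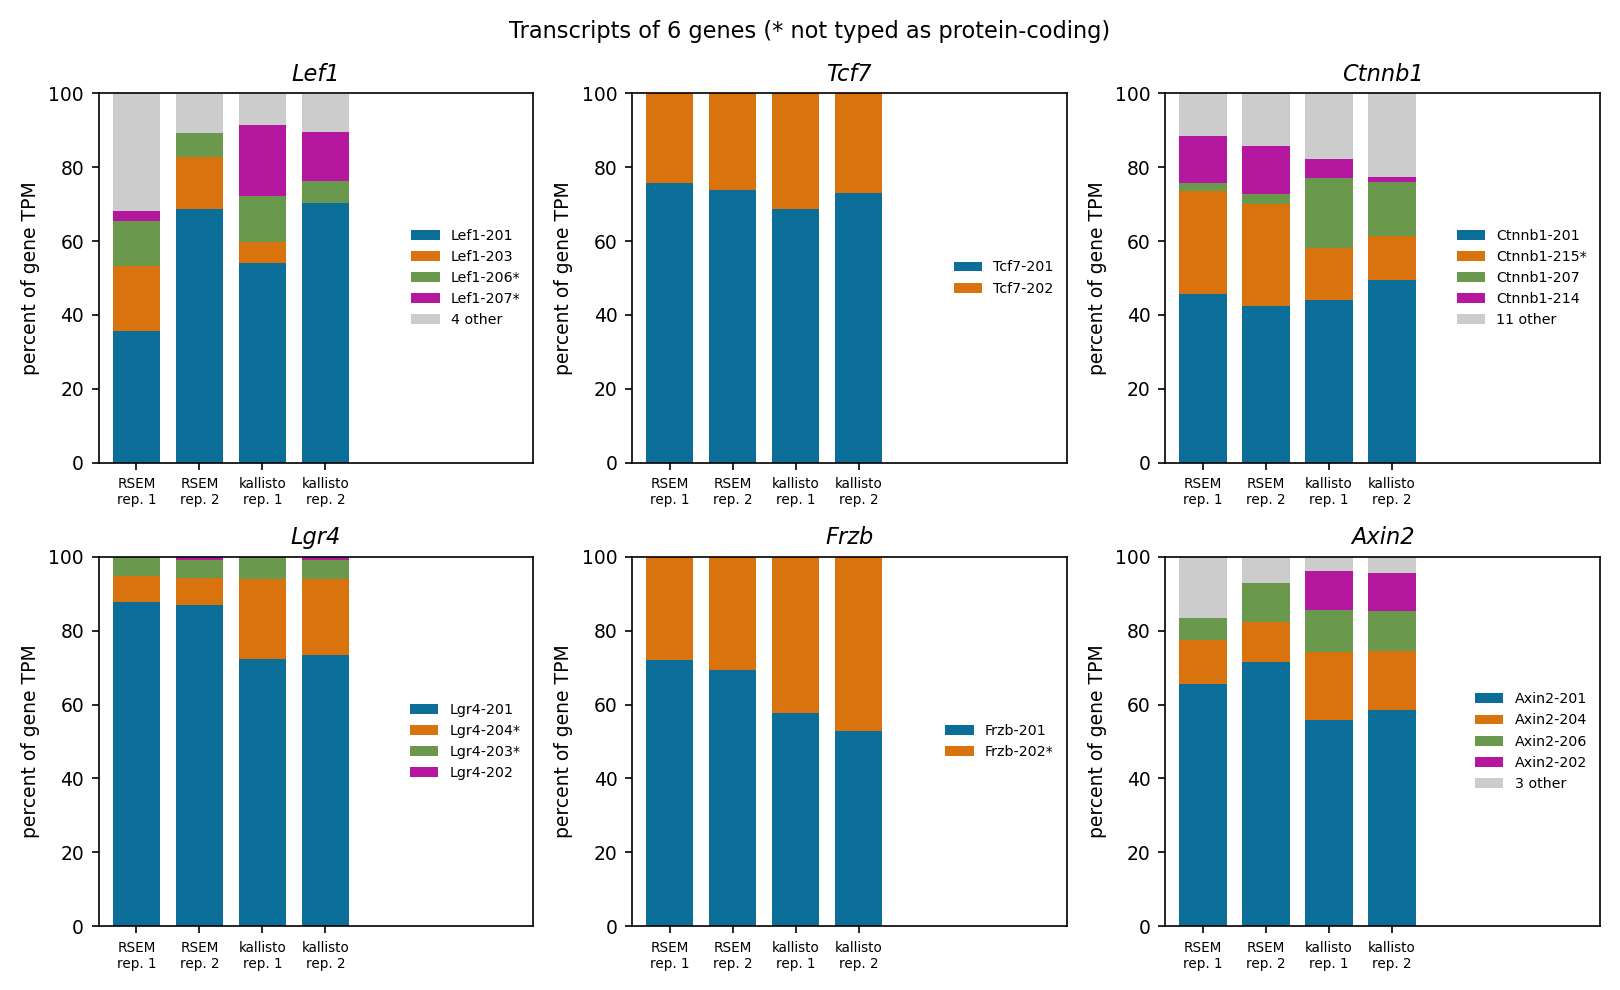
Percent of each gene's TPM on its annotated transcripts for Lef1, Tcf7, Ctnnb1, Lgr4, Frzb and Axin2, as stacked bars for replicates 1 and 2 by RSEM and by kallisto; asterisks mark transcripts not typed as protein-coding. Lef1-201 takes a smaller share in replicate 1 than in replicate 2 in both quantifications, while Tcf7, Lgr4 and Frzb keep the same leading transcript at similar shares in both libraries.

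The wider pathway was taken as 78 genes outside the member list. Of these, 52 were detected and none of the 52 was over 2-fold apart, against the 5.89% of nuclear protein-coding genes given above. With TMM factors on counts 1 of the 52 was, Igfbp4. All 13 receptors and polarity genes of β-catenin-independent signalling were detected, led by Ryk, a Wnt coreceptor, at 14.6 TPM in replicate 1 and 15.1 in replicate 2, then Vangl1 at 9.16 and 8.99 TPM and Daam2 at 6.77 and 7.40 TPM. Of 22 signal transducers 21 were detected. The kinase gene Csnk1a1, which primes β-catenin for degradation, led them at 74.1 TPM in replicate 1 and 69.4 in replicate 2. Csnk1d followed at 35.9 and 33.4 TPM and Tnks2, a tankyrase that destabilises axin, at 32.9 and 29.9 TPM.

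All 7 genes of Wnt secretion and recycling were detected. Tmed10 had 64.7 TPM in replicate 1 and 63.6 in replicate 2, Tmed2 had 53.4 and 57.2 TPM, and Snx3, a sorting nexin of the route that returns Wls, had 52.3 and 56.8 TPM. Among 9 genes known as Wnt targets in other tissues, 7 were detected. Tbx3 had 47 TPM in replicate 1 and 47.9 in replicate 2, Ccnd1 had 25.4 and 28.0 TPM, and Myc had 18.6 and 18.8 TPM. The libraries differed little in these 3. Of 13 other secreted and membrane modulators 4 were detected. Igfbp4, which also binds insulin-like growth factors, had 29.9 TPM in replicate 1 and 59.2 in replicate 2, a 1.98-fold ratio in the same direction as Frzb. On the log2 scale, replicate 1 over replicate 2, this is -0.98, and -1.09 with TMM factors. The glypican genes Gpc4 and Gpc3 had 27.0 and 15.9 TPM in replicate 1 and 33.6 and 17.6 TPM in replicate 2.

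Genes on the opposite strand overlap 21 members, and in no case did that partner reach 1 TPM in either library. Expected counts were whole numbers in both libraries for 46 of the 47 members. No share over all genes is given for either count, so neither sets the members apart.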

How the data were processed

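The authors deposited expected counts and TPM for genes and transcripts, quantified from alignments to mm10 with GENCODE M21, per the deposited file list. Column names are those of RSEM, per the file headers. The deposited gene tables also give a posterior mean and lower and upper credibility bounds, a signal per gene in TPM, and the transcript tables the percent of a gene's TPM on each transcript and the effective length, another unit (bases), per the file headers. A second deposited quantification has kallisto columns, per the file headers, and was summed here to genes. The aligner and all tool versions were not given in the sources used here. Reads from CAST alleles were compared with mm10, and any loss was not measured.

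The 47 members, the lists of other pathway genes and the markers were chosen with earlier results of these data known. Members are given with values in both libraries. Of other pathway lists, the 3 highest genes by mean TPM are named, and so is any gene over 2-fold apart with a mean of at least 1 TPM, or any Wnt of at least 1 TPM in either library. Marker lists are given as counts and sums, and 1 listed marker is not reported here. Wnt5b, Cd3e, the 8 lymphocyte markers, Glul, Lum, Tcf21, Col1a1, Col3a1, Lep, S100b, Erbb3 and the kidney markers at 0 are named outside this rule. Detection needed 1 TPM or more in each library, and ratios over 2-fold needed a mean of at least 1 TPM. The fold call was run on simulated counts with planted 4-fold changes, well past the 2-fold limit. This checks the code and not the calls made here. Ratios between genes were taken per library (n = 2). TMM factors came from edgeR 4.0.16 in R 4.3.3 on expected counts rounded to whole numbers over 16853 genes, and 39 ERCC spike-ins gave another scaling. Promoter windows of 300 bases are from RefSeq. Python 3.11.15, pandas 2.3.3, numpy 2.4.6 and matplotlib 3.10.9 were used. Alternatives were the kallisto and posterior mean values, nuclear protein-coding scaling, other limits, pseudocounts, both scalings and leaving out either replicate.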

Additional observations from a re-analysis of the deposited data

How the results depend on the processing

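The number of detected members was 38, and 33 to 43 under other limits and quantifications, or 39 and 40 from 1 library. The number over 2-fold was 2, but 4 with a limit of 3 counts in either library, which adds Fzd10 and Dkk1, and 1 with a mean of at least 5 TPM. The median member level was 2.26 as log2(TPM + 1), and 2.23 to 2.30 from 1 library. It was 2.69 by kallisto and 3.88 scaled to nuclear protein-coding genes, both of which are other TPM scales. As log2(TPM + 0.1) it was 1.96, and over detected members 2.63. Of 16 ratios between family members, Lgr5 over Lgr6 (0.31) turned to -0.039 without replicate 1 and was 0.65 without replicate 2, and Axin1 over Axin2 to -0.24 by kallisto and -0.010 by posterior means, and the cause was not tested. Lef1 fell below 2-fold with TMM factors, and Notum passed it by kallisto alone. No paired analysis was possible because there was 1 group. Counts over 2-fold, intervals apart and ratios between libraries need both libraries and were not computed from 1. Precision rests on 2 libraries and, for Wnt6, Wnt11, Rspo1, Rspo2, Fzd9, Fzd10, Dkk1, Sfrp4, Sfrp5 and Wif1, on fewer than 100 counts in each.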
